A study of Sus scrofa with 12 samples.

Results

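The proteasome is the barrel-shaped protease that breaks down most ubiquitin-tagged proteins of a cell, and the genes described here encode its subunits, activators, inhibitor and assembly chaperones. They were taken by symbol, as every entry of the deposited coding-gene table named PSM with a letter from A to G and a number, which gave 48 of 21674 genes. Of the 48, 41 carried the KEGG pathway term for the proteasome in the deposited annotation. The study sequenced RNA from testes removed from 12 boars, 3 in each of 4 groups, with a separate library for every boar. Group Ha was Hezuo (HZ) at 30 days of age and Hb was Hezuo at 120 days, and La and Lb were Landrace (LC) at 30 and at 120 days. Hezuo is a small indigenous pig of the Chinese highlands and Landrace a large commercial breed. The comparisons Ha vs Hb and La vs Lb asked how expression differed between the ages within a breed. Ha vs La and Hb vs Lb asked how the breeds differed at each age, and whether the change with age differed between breeds was tested as the breed-by-age interaction over all 12 libraries. Fold changes are the second group over the first, and in the interaction a positive value means a higher log2 fold change with age in Landrace. A change with age in Hezuo is Ha vs Hb throughout, and in Landrace La vs Lb. Estimated counts over all coding genes came to 23758931, 22538417 and 23490893 in the Ha libraries and 20678367, 22707568 and 17165519 in Hb. In La they were 22233155, 18523274 and 23563949, and in Lb 23253496, 22951618 and 18998959. The 8 Sertoli-cell and 7 Leydig-cell markers listed were all in the table, and none was at 0 in every library. The listed lymphocyte, macrophage and endothelial markers passed this bar too, so it does not identify the tissue. The 10 spermatid markers summed to 4.41 to 8.87 CPM (counts scaled to a common library size by the trimmed mean of M values, TMM) at 30 days and to 3154 to 8232 CPM at 120 days.

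In the core particle, outer rings of alpha subunits (PSMA) gate the entry and inner rings of beta subunits (PSMB) hold the proteolytic sites. A regulatory particle unfolds substrates with a ring of ATPases (PSMC) and recognises and removes ubiquitin with its non-ATPase subunits (PSMD), and other caps (PSME) can take its place. Interferon exchanges the catalytic beta subunits for immune forms, and in germ cells the alpha subunit PSMA8 takes the place of PSMA7 and often pairs with the PSME4 cap, a form needed in meiosis and in the removal of histones from spermatids.

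Of the 48 genes, 47 had enough counts to be tested with age in each breed, between breeds at 30 days and in the interaction, and 46 between breeds at 120 days. PSMB11 had at most 2 estimated counts in any library and was never tested, and PSMB9 was not tested in Hb vs Lb. A gene was called when its edgeR adjusted p was under 0.05 and its log2 fold change was over 1 in size. Between 30 and 120 days in Hezuo, 8 of 47 members (17%) were called higher, against 28.2 percent of all genes tested, and 7 (14.9%) were called lower, against 23.2 percent. In Landrace, 10 of 47 (21.3%) were called higher, against 27.5 percent of all genes, and 5 (10.6%) lower, against 20.1 percent. By adjusted p alone, Ha vs Hb gave 17 members higher and 13 lower, with 35.9 and 33 percent of all genes. La vs Lb gave 25 higher and 9 lower, with 36.9 and 33 percent of all genes. With TMM scaling, the median log2 fold change of the members was 0.11 in Hezuo (negative with library totals and on FPKM) and 0.40 in Landrace, and over all genes tested it was -0.02 and 0.01. The median size of the change, sign left aside, was 0.55 and 0.52 among members and 1.14 and 0.98 among all genes. Ha vs Hb and La vs Lb share no library. All 8 members called higher in Hezuo were called higher in Landrace too, which is 100 percent of the Hezuo list and 80 percent of the Landrace list: PSMA8, PSMC3, PSMC4, PSMD2, PSMD8, PSME4, PSMF1 and PSMG1. Among the members called lower, 5 were shared, or 71.4 percent of the Hezuo and 100 percent of the Landrace list: PSMB8, PSMB9, PSMB10, PSME1 and PSME2. Over all genes tested in both, 3794 higher calls (84.4 and 86.3 percent of the lists) and 2492 lower calls (66.2 and 77.8 percent) were shared.

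Most calls did not rest on a single library. In each breed, 13 of the 15 called members stayed called whichever of the 6 libraries was left out. In Hezuo the exceptions were PSMB9, lost without Ha2 (-2.6, adjusted p 0.068), without Ha3 (-2.63, adjusted p 0.065) and without Hb2 (-2.76, adjusted p 0.0624), and PSMD8, lost without Hb3 (log2 fold change 0.91, adjusted p 0.00394). In Landrace they were PSMG2, lost without La2 (0.99, adjusted p 0.00188) and without Lb2 (0.99, adjusted p 0.00109), and PSMC3, lost without Lb2 (0.96, adjusted p 0.000246). By adjusted p alone, 23 of 30 members in Hezuo and 28 of 34 in Landrace passed whichever library was left out. The exceptions by this rule were PSMA1, PSMB9, PSMC1, PSMC6, PSMD4, PSMD13 and PSMG2 in Hezuo. In Landrace they were PSMA1, PSMB2, PSMC6, PSMD1, PSMD5 and PSMG4. Other members lay near the fold threshold. PSMC5 reached 0.999 in Hezuo, just under a log2 fold change of 1, and was called without Ha1 (1.01), without Ha3 (1.01) and without Hb2 (1.04). PSMA4, at -0.95, adjusted p 0.000984, was called lower without Ha3 (-1.004), without Hb2 (-1.11), with library totals and in both FPKM fits. In Landrace PSMD14, at 0.97, adjusted p 0.000427, was called without La1 (1.02) and without La3 (1.04), and PSMD10, at -0.92, adjusted p 0.000435, was called lower without Lb1 (-1.02). PSMD9 was called in Hezuo without Hb1, and its counts in the remaining Hb libraries were 0. It was also called lower there with library totals, in both FPKM fits, in the fit of all 12 libraries and with the replicate block.

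**Figure D1:**
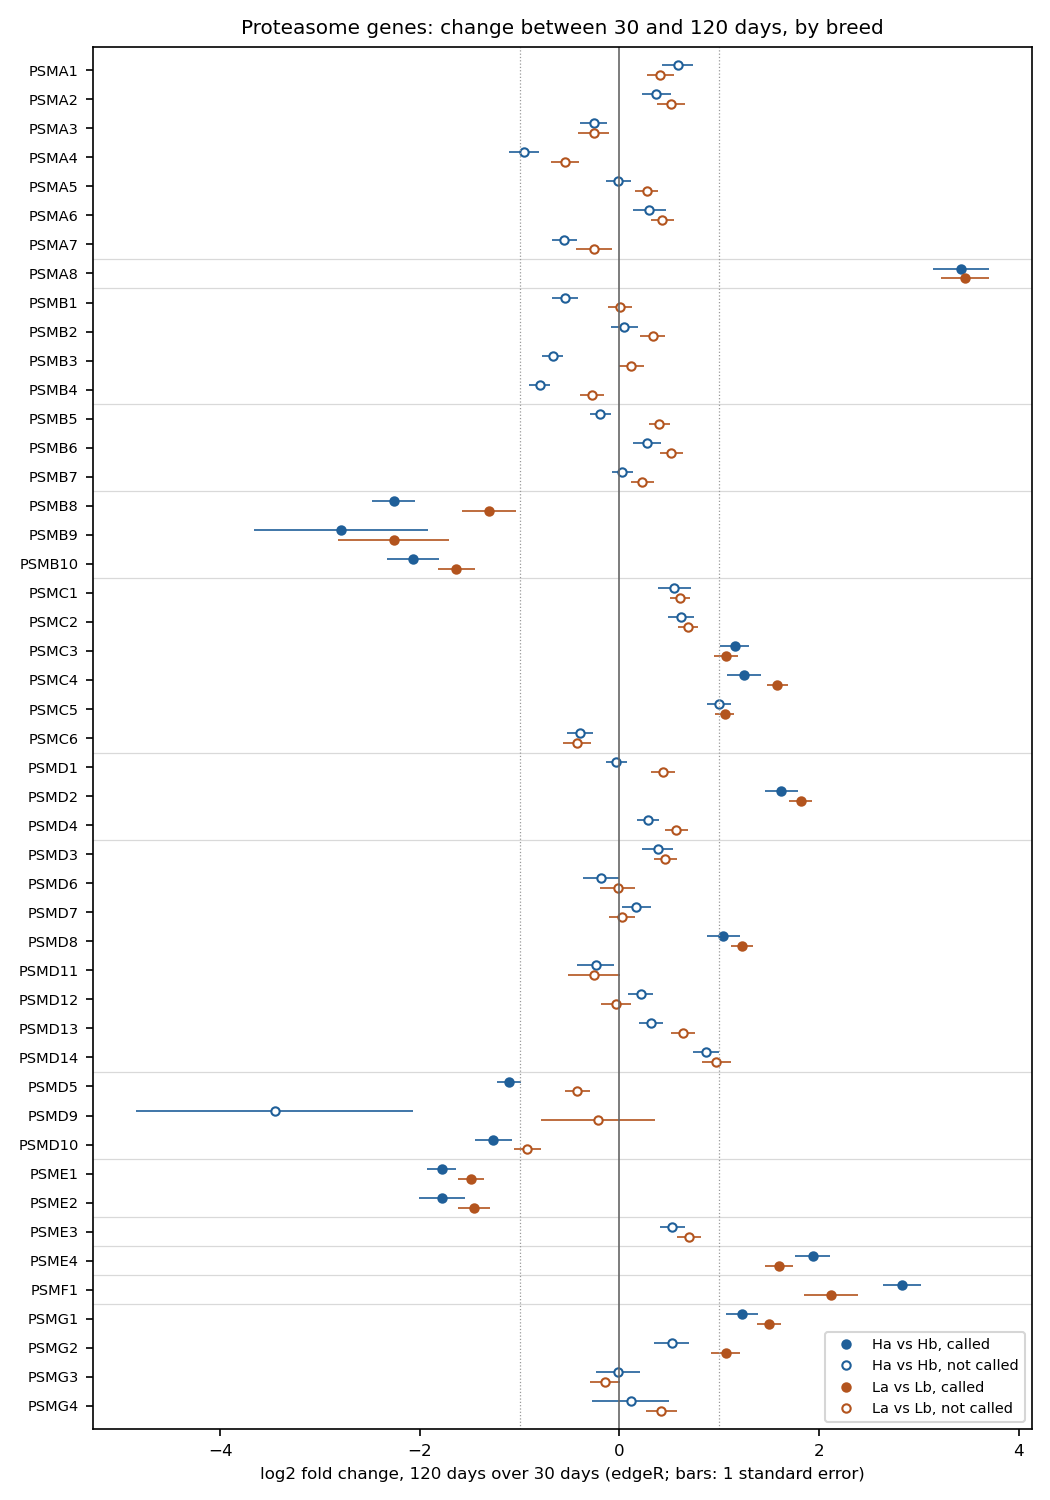
Log2 fold change (x axis, 120 days over 30 days, edgeR with TMM scaling) of each of the 47 tested proteasome genes (y axis, ordered by role), in blue for Hezuo and in orange for Landrace, with bars of 1 SE, filled points for called genes and dotted lines at a log2 fold change of 1 in either direction. PSMA8 (3.42 and 3.46) and PSMF1 (2.83 and 2.12) lie farthest to the right among the called genes in Hezuo, PSMB8 to PSMB10, PSME1 and PSME2 lie to the left in both breeds, and under the other scalings no filled point changes side.

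The split between higher and lower members depended on the scaling, which moved the median of all genes too. Against TMM, scaling by library totals shifted the median log2 fold change of all genes by -0.3 in Hezuo and by -0.17 in Landrace. Fits on the deposited FPKM shifted it by -0.26 (pseudocount 1) and -0.45 (pseudocount 0.1) in Hezuo and by -0.17 and -0.28 in Landrace. The median of the members moved with it: the 0.11 in Hezuo turned negative, to -0.20 with library totals and to -0.35 and -0.37 on FPKM, and was 0.023 without Ha3, and the 0.40 in Landrace fell to 0.23 with library totals and 0.08 in each FPKM fit. With library totals the members called higher and lower in Hezuo were 4 and 10 in place of 8 and 7, and in both FPKM fits 4 and 13. In Landrace they were 7 and 6 with library totals and 6 and 6 in both FPKM fits, in place of 10 and 5. By adjusted p alone, the 17 higher and 13 lower members of Hezuo became 11 and 19 with library totals and 11 and 24 in the FPKM fits. The 25 and 9 of Landrace became 19 and 12 with library totals, 16 and 15 with a pseudocount of 1 and 15 and 15 with 0.1. The shares of all genes by adjusted p alone in these fits are not given here, and those that follow are of calls at the fold threshold. All genes moved too: with library totals, 24 percent were called higher and 30.5 percent lower in Hezuo. The shares called higher and lower there were 17 and 23.2 percent on FPKM with pseudocount 1 and 21.7 and 34.7 percent with 0.1. In Landrace they were 25 and 24.3 percent with library totals, 17.5 and 16 percent on FPKM with pseudocount 1 and 22.9 and 26.7 percent with 0.1. No called member changed sign under these scalings. PSMC3, PSMC4, PSMD8 and PSMG1 were no longer called in Hezuo with library totals or FPKM. In Landrace, PSMC3, PSMC5 and PSMG2 were no longer called with library totals or FPKM, nor PSMD8 with FPKM. Among members with an adjusted p under 0.05 but no call in Hezuo, PSMD4 turned negative with library totals and FPKM and PSMD13 with FPKM.

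The 7 standard alpha subunits PSMA1 to PSMA7 form the outer rings, and none of them was called with age in either breed by edgeR with TMM. Their log2 fold changes ran from -0.95 (PSMA4) to 0.58 (PSMA1) in Hezuo and from -0.55 (PSMA4) to 0.52 (PSMA2) in Landrace. By adjusted p alone, 1 was higher and 2 were lower in Hezuo, and 3 were higher and 1 lower in Landrace. Of all genes tested, 35.9 and 33 percent were higher and lower by this rule in Hezuo, and 36.9 and 33 percent in Landrace. The median of these 7 subunits, -0.01 in Hezuo, was 0.04 with RLE size factors, -0.32 with library totals (1 called lower, PSMA4) and -0.51 on FPKM with pseudocount 0.1 (2 called lower, PSMA4 and PSMA7). That of 0.27 in Landrace was 0.1 with library totals and -0.04 in the same FPKM fit. PSMA8 encodes the testis form of the fourth-position alpha subunit and lies on Sscrofa11.1 chromosome 6, 110799065 to 110836937. Its level was 2.19, 3.13 and 1.71 CPM in the Ha libraries, 29.6, 24.7 and 21.2 in Hb, 2.04, 1.81 and 1.75 in La and 25.4, 15.9 and 19.9 in Lb. Every 120-day library was above every 30-day library in both breeds, with Lb2 the lowest at 120 days. The log2 fold change was 3.42 ± 0.28 (SE), adjusted p 4.55e-05 in Hezuo and 3.46 ± 0.24 (SE), adjusted p 4.35e-06 in Landrace. In bulk testis, fewer cells of a type and less RNA per cell cannot be told apart, and the same holds for more. PSMA7, the somatic subunit that PSMA8 replaces, measured 106, 101 and 93.4 CPM in the Ha libraries, 73.6, 71 and 60.5 in Hb, 110.1, 107 and 101 in La and 86.5, 113 and 64.1 in Lb. The Hb libraries were all below the Ha libraries, while Lb2 was above every La library and the Landrace ages overlapped. The change was -0.55 ± 0.13 (SE), adjusted p 0.00567 in Hezuo, short of the fold threshold except in the FPKM fits, where it was called (-1.03 and -1.05). In Landrace it was -0.26 ± 0.18 (SE), adjusted p 0.227, with an adjusted p under 0.05 with library totals (-0.44), in both FPKM fits (-0.60 each, the smallest adjusted p 0.00698) and without Lb2 (-0.48), and -0.08 without Lb3 (adjusted p 0.623). PSMA7 overlaps LSM14B, and the strand setting of the counting is not stated, so its counts are uncertain to that extent. Per length, the FPKM of PSMA8 as a percentage of that of PSMA7 was 1.42, 2 and 1.27 in Ha, 28.4, 24.8 and 25.1 in Hb, 1.28, 1.09 and 1.11 in La and 20.4, 10.2 and 21.8 in Lb. PSMA7 was the more abundant per length at both ages, and Lb2 lay below the other Lb libraries. The log2 ratio rose by 4.09 in Hezuo and by 3.84 in Landrace, with no overlap of the ages. An exact permutation test of 3 libraries against 3 cannot give a p under 0.1.

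Genes of meiosis and spermatid markers moved in the same direction as PSMA8. All 14 listed meiosis genes were called higher in Hezuo and all 14 in Landrace, with median log2 fold changes of 3.18 and 3.92. SYCP2 was their most abundant gene, and their summed level was 53.1, 60.7 and 41.4 CPM in the Ha libraries, 434, 378 and 388 in Hb, 26.5, 23.7 and 20.9 in La and 327, 299 and 321 in Lb. In Hezuo, SYCE1 was not called without Ha2 (3.47, adjusted p 0.0562) or without Hb3 (3.17, adjusted p 0.0513), nor TEX12 without Hb2 (0.996, adjusted p 0.0422), and 13 of 14 were called with library totals and 9 on FPKM with pseudocount 1. All 8 spermatocyte markers, 7 of which are also on the meiosis list, were called higher in both breeds, with PIWIL1 the most abundant. They summed to 31.7, 35.6 and 19.9 CPM in the Ha libraries, 783, 676 and 651 in Hb, 16.1, 14.1 and 12.7 in La and 502, 485 and 494 in Lb. Of the 10 spermatid markers, 9 were tested and called higher in each breed, with PRM1 the most abundant. SPACA3 alone was not, and it was called in Hezuo without Ha1, Ha2, Ha3 or Hb1 (adjusted p 0.000106 to 0.0389) and in Landrace without La1, La2 or Lb2 (adjusted p 0.000318 to 0.0459). The spermatid markers summed to 4.99, 5.54 and 6.48 CPM in the Ha libraries, 6524, 5789 and 8232 in Hb, 8.87, 7.74 and 4.41 in La and 4193, 3452 and 3154 in Lb. Of 11 listed genes of histone removal in spermatids, 9 were in the table and all 9 were called higher in each breed. PRM1 was again the most abundant, 4 of the 11 were also spermatid markers and 1 was also a spermatocyte marker. The sum was 83.2, 86.5 and 77.4 CPM in the Ha libraries, 4152, 3727 and 5529 in Hb, 65.2, 59.3 and 60.4 in La and 2914, 2398 and 2295 in Lb. No gene of these lists was at 0 in every library, and their part in the proteasome results was not tested.

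The structural beta subunits PSMB1 to PSMB4 complete the inner rings without cutting proteins, and none was called with age by edgeR with TMM. In Hezuo, PSMB1 (-0.54, adjusted p 0.00729), PSMB3 (-0.67, adjusted p 0.00111) and PSMB4 (-0.8, adjusted p 0.00042) were lower, with all 3 Hb libraries below all 3 Ha libraries in each case. The FPKM fits called PSMB1, PSMB3 and PSMB4 lower, and library totals called PSMB4. In Landrace, PSMB2 was higher (0.33, adjusted p 0.0438) with all 3 Lb libraries above all 3 La libraries. Its adjusted p did not stay under 0.05 whichever library was left out. PSMB1 (0.01) and PSMB3 (0.12) turned negative in Landrace with library totals and FPKM. The median of the structural subunits, 0.06 in Landrace, turned negative under the same scalings. The catalytic subunits PSMB5, PSMB6 and PSMB7 carry the chymotrypsin-like, caspase-like and trypsin-like activities. PSMB5 measured 153, 146 and 146 CPM in the Ha libraries, 135, 123 and 131 in Hb, 108, 102 and 97 in La and 133, 146 and 122 in Lb. The Hb libraries were below the Ha libraries and the Lb libraries above the La libraries, with changes of -0.19 ± 0.11 (SE), adjusted p 0.141 in Hezuo and 0.4 ± 0.1 (SE), adjusted p 0.00801 in Landrace. Both depended on scaling: in Hezuo it was -0.50 with library totals and -0.68 in each FPKM fit, with adjusted p under 0.05 (the smallest 0.00035), and in Landrace 0.23 with library totals and 0.08 in each FPKM fit, with adjusted p over 0.05 (the largest 0.386). PSMB6 measured 106, 91.9 and 98.1 CPM in the Ha libraries, 129.5, 101 and 128 in Hb, 80.2, 71.8 and 68.2 in La and 103, 114 and 95.2 in Lb, and its ages overlapped in Hezuo but not in Landrace. It rose in Landrace by 0.52 ± 0.11 (SE), adjusted p 0.00314, and by 0.21 in each FPKM fit (adjusted p over 0.05, the largest 0.068), while the 0.28 of Ha vs Hb turned negative with library totals and FPKM. PSMB7 measured 72.1, 67.8 and 70.1 CPM in the Ha libraries, 68.1, 71.6 and 74.3 in Hb, 71.5, 60.5 and 58.4 in La and 74.6, 76.3 and 69.5 in Lb, and its ages overlapped in both breeds. Its log2 fold changes of 0.03, adjusted p 0.832 in Hezuo and 0.23, adjusted p 0.108 in Landrace turned negative in the FPKM fits, and the former with library totals too. In Hezuo the FPKM fits gave -0.46 each, with adjusted p under 0.05 (the smallest 0.00586).

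The immune subunits PSMB8, PSMB9 and PSMB10, which replace PSMB5, PSMB6 and PSMB7 in the immunoproteasome, were all called lower with age in both breeds. PSMB8 and PSMB9 are neighbours within the major histocompatibility region (chromosome 7, 25058456 to 25061666 and 25072133 to 25077508). PSMB8 measured 24.2, 23.5 and 23.7 CPM in the Ha libraries, 5.97, 5.11 and 3.76 in Hb, 21.9, 34.4 and 26.7 in La and 12.5, 7.15 and 13.3 in Lb. All 120-day libraries were below all 30-day libraries, with Lb2 the lowest of Lb. The change was -2.26 ± 0.21 (SE), adjusted p 8.46e-05 in Hezuo and -1.31 ± 0.27 (SE), adjusted p 0.00263 in Landrace. PSMB10, on chromosome 6, 28544910 to 28547609, measured 12.4, 13.4 and 15.6 CPM in the Ha libraries, 4.29, 2.88 and 2.7 in Hb, 22.7, 22.1 and 20 in La and 8.14, 5.65 and 6.83 in Lb. The 120-day libraries were again all lower, and every La library was above every Ha library. The change was -2.07 ± 0.26 (SE), adjusted p 0.000339 in Hezuo and -1.63 ± 0.19 (SE), adjusted p 8.86e-05 in Landrace. PSMB9 was scarce, at 29.2, 68.6 and 68.6 estimated counts in the Ha libraries, 11.4, 5.93 and 0 in Hb, 45.5, 57.7 and 22.7 in La and 5.81, 5.87 and 12 in Lb. On the CPM scale this was 1.11, 2.77 and 2.68 CPM in the Ha libraries, 0.638, 0.279 and 0 in Hb, 1.95, 2.91 and 0.914 in La and 0.278, 0.282 and 0.616 in Lb, with every 120-day library below every 30-day library. The 11 counts above 0 lay within 0.1 step of whole multiples of 5.75 estimated counts, from 1 to 12 steps. The change was -2.79 ± 0.87 (SE), adjusted p 0.0229 in Hezuo, where the call was lost without Ha2, Ha3 or Hb2 (adjusted p 0.0624 to 0.068) and with the replicate block (-2.93, adjusted p 0.0564), and -2.26 ± 0.56 (SE), adjusted p 0.0065 in Landrace. PSMB11, the thymus form of PSMB5, had 0, 0 and 0 estimated counts in the Ha libraries, 1, 2 and 0 in Hb, 1, 0 and 0 in La and 0, 0 and 1 in Lb. All its libraries were at or under the floor of 3 counts, and no fold change is given.

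Per length, the immune subunits were a minority of the pair at both ages. The FPKM of PSMB8 as a percentage of that of PSMB5 was 18 ± 0.212 in Ha, 4.27 ± 0.924 in Hb, 30.3 ± 7.44 in La and 9.41 ± 3.51 in Lb (mean ± SD, 3 libraries each). For PSMB10 over PSMB7 it was 19.4 ± 2.43 in Ha, 4.56 ± 1.41 in Hb, 33.5 ± 2.31 in La and 9.2 ± 1.77 in Lb, and for PSMB9 over PSMB6 2.09 ± 0.968 in Ha, 0.243 ± 0.239 in Hb, 2.39 ± 1.26 in La and 0.357 ± 0.213 in Lb. The ages did not overlap in any of these ratios in either breed. The percentages of PSMB8 and of PSMB10 were higher in every La library than in every Ha library and in every Lb library than in every Hb library. Genes of class I antigen processing and interferon response fell in part alongside. Of 15 listed genes, 14 were tested with age (IFNG was not), and 11 were called lower and 0 higher in each breed, with medians of -1.73 and -1.47. At an unadjusted p under 0.05, 13 of the 14 passed in each breed, and DESeq2 also called 0 higher. The genes called in Hezuo included IFNGR2 (-3.13), NLRC5 (-1.86) and TAP2 (-1.8), and in Landrace the smallest adjusted p were those of TAPBP (-2.7), IFNGR1 (-1.75), TAP1 (-1.7) and IRF2 (-1.4), all log2 fold changes. TAP2 was not called in Landrace without Lb2 (-0.85, adjusted p 0.00347) or without Lb3 (-0.98, adjusted p 0.00929). CALR was the most abundant gene of the list, whose summed level was 1836, 1806 and 1712 CPM in the Ha libraries, 2036, 1904 and 2089 in Hb, 2183, 2147 and 2157 in La and 2230.3, 1920.1 and 1998 in Lb, with a higher mean at 120 days in Hezuo and a lower one in Landrace. None was at 0 in every library.

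Markers of immune and endothelial cells fell in part alongside the immune subunits. Of 8 lymphocyte markers, 6 were tested, and 5 were called lower in Hezuo and 6 in Landrace. PTPRC, the most abundant, was the exception in Hezuo and was called there without Hb1 (-2.02, adjusted p 0.0337). The list summed to 23.9, 18.2 and 21 CPM in the Ha libraries, 5.8, 5.43 and 2.44 in Hb, 34.7, 33 and 32.7 in La and 4.81, 6.64 and 9.6 in Lb. Of 5 macrophage markers, 1 was called higher in each breed (CD163) and 4 lower in Hezuo and 3 in Landrace, with CSF1R the most abundant. CD14, not called in Landrace, was called lower there without Lb2 (-1.01, adjusted p 0.0377). The sum was 71.9, 51.8 and 63.9 CPM in the Ha libraries, 38.7, 30.5 and 24.1 in Hb, 78.4, 69.1 and 76.2 in La and 37.6, 58.7 and 47.5 in Lb. Of 5 endothelial markers, 5 were called lower in Hezuo and 3 in Landrace, with VWF the most abundant. EMCN was not called in Hezuo without Ha1, Ha2, Ha3 or Hb1 (adjusted p 0.0559 to 0.117). In Landrace, CDH5 was not called without La1 (-0.92, adjusted p 0.00968), and EMCN (-2.36, adjusted p 0.00781 without La3) and VWF (-1.12, adjusted p 0.000545 without Lb2) were gained. The sum was 669, 681 and 616 CPM in the Ha libraries, 173, 305 and 186 in Hb, 795, 627 and 756 in La and 316, 497 and 278 in Lb. None of these markers was at 0 in every library, and the part of such cells in the immune-subunit result was not tested.

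**Figure D2:**
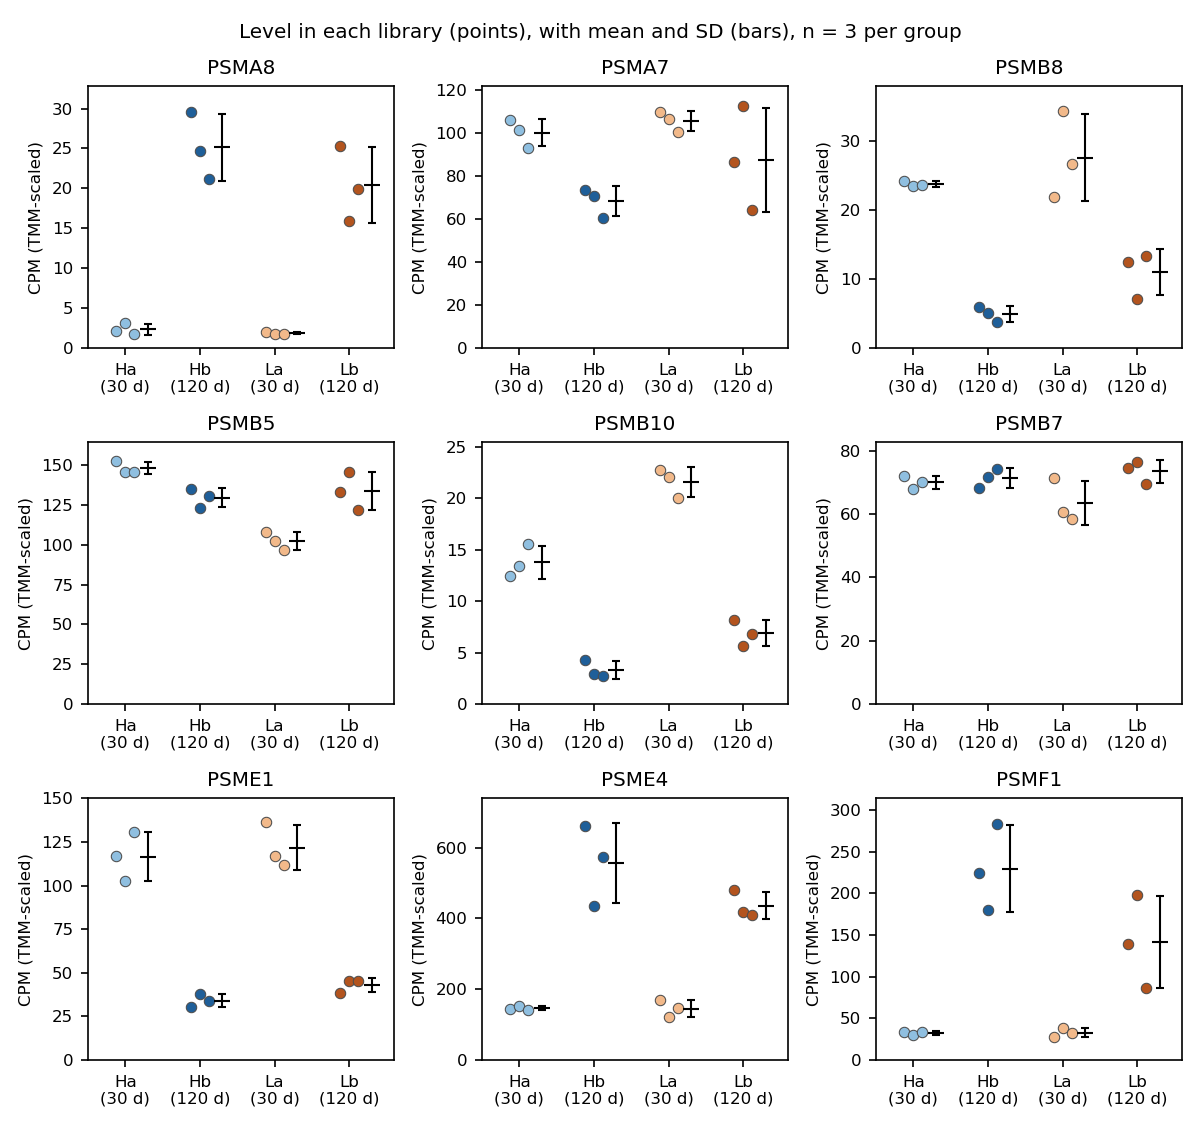
TMM-scaled CPM (y axis, from 0) of 9 proteasome genes in each library (points), with the mean and SD of the 3 libraries of a group (bars), for Ha and La at 30 days and Hb and Lb at 120 days (x axis). PSMA8, PSME4 and PSMF1 are higher and PSMB8, PSMB10 and PSME1 lower in every 120-day library, while PSMA7, PSMB5 and PSMB7 were not called by edgeR with TMM; no called gene changes direction under another scaling, PSMA7 was called lower in Hezuo in the FPKM fits, and PSMB7 turns negative there.

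The regulatory particle begins with the ATPase ring, PSMC1 to PSMC6, which unfolds substrates and opens the gate. At an adjusted p under 0.05, 5 of its 6 genes were higher and PSMC6 was lower in both breeds, and the directions held under every scaling tried. By adjusted p alone, 35.9 and 33 percent of all genes were higher and lower in Hezuo, and 36.9 and 33 percent in Landrace. In Hezuo, PSMC1 was lost by this rule without some library. The ring's median log2 fold change was 0.81 in Hezuo and 0.87 in Landrace, with 2 and 3 genes called higher, against 28.2 and 27.5 percent of all genes tested. In Hezuo it was 0.49 with library totals and 0.31 on FPKM with pseudocount 0.1, and PSMC3 and PSMC4 were not called in either. In Landrace it was 0.70 and 0.56, with 1 called in each. PSMC4 measured 152, 125 and 141 CPM in the Ha libraries, 389, 264 and 339 in Hb, 108, 93.4 and 98.5 in La and 311, 305 and 271 in Lb. All 120-day libraries were above all 30-day libraries. The change was 1.25 ± 0.17 (SE), adjusted p 0.000548 in Hezuo, not called with library totals or FPKM, and 1.58 ± 0.11 (SE), adjusted p 3.58e-06 in Landrace, called under every setting. PSMC3 followed with 1.15, adjusted p 0.000361 and 1.07, adjusted p 8.24e-05, with all 120-day libraries above all 30-day libraries. Its La vs Lb call was lost without Lb2 (0.96). PSMC6 fell by 0.40 and by 0.42 on the log2 scale (adjusted p 0.032 and 0.0262), with all 3 older libraries below all 3 younger ones in each breed. In neither breed did its adjusted p stay under 0.05 whichever library was left out. Of the other base subunits, PSMD1 and PSMD2 are scaffolds and PSMD4 is a ubiquitin receptor. PSMD2 lies on chromosome 13, 122187500 to 122199397 and measured 617, 575 and 557 CPM in the Ha libraries, 2069, 1516 and 1792 in Hb, 477, 401 and 419.9 in La and 1486, 1673 and 1361 in Lb. Every 120-day library was above every 30-day library, and the change was 1.62 ± 0.16 (SE), adjusted p 0.000113 in Hezuo and 1.81 ± 0.12 (SE), adjusted p 3.16e-06 in Landrace, called under every setting tried. In the lid, which holds the deubiquitinase PSMD14, only PSMD8 of 8 genes was called by edgeR with TMM, at 1.04, adjusted p 0.00109 in Hezuo and 1.23, adjusted p 2.02e-05 in Landrace, with all 120-day libraries above all 30-day libraries. The Hezuo call was lost without Hb3 (0.91). PSMD14 rose by 0.87, adjusted p 0.00082 and 0.97, adjusted p 0.000427, with the ages apart in both breeds, and was called in Landrace without La1 (1.02) and without La3 (1.04). The lid's log2 fold changes ran from -0.24 (PSMD11) to 1.04 in Hezuo and from -0.26 (PSMD11) to 1.23 in Landrace. Its medians of 0.26 and 0.24 turned negative in the FPKM fit, and the former with library totals, as did the 0.29 of the base subunits in Hezuo.

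The genes of the regulatory particle rose relative to those of the core ring at 120 days, a comparison chosen after the values were seen. Summed FPKM of the 14 core genes (PSMA1 to PSMA7 and PSMB1 to PSMB7) was 1297 ± 63.2 in Ha, 844 ± 7.47 in Hb, 1067 ± 89.9 in La and 970.0 ± 42.4 in Lb (mean ± SD, 3 libraries each). Summed FPKM of the 17 PSMC and PSMD subunits, assembly chaperones left out, was 977 ± 41.9 in Ha, 1261 ± 71 in Hb, 799 ± 39.2 in La and 1267 ± 39.2 in Lb. The FPKM sums of the core overlapped between the ages in Landrace, with Lb2 (1019) above La2 (1003), and not in Hezuo. On the CPM scale the core sum averaged 1521 in Ha, 1404 in Hb, 1292 in La and 1437 in Lb, with the ages overlapping in both breeds. So the lower mean core sum in FPKM at 120 days was not seen in CPM for Landrace, and the fall was smaller for Hezuo. The ratio of the regulatory to the core FPKM sum within each library was 0.749, 0.744 and 0.767 in Ha, 1.57, 1.41 and 1.5 in Hb, 0.72, 0.763 and 0.768 in La and 1.31, 1.29 and 1.32 in Lb. The ages were far apart, the Ha and La libraries overlapped, and all Hb libraries were above all Lb libraries. Without PSMD2, the most abundant of them, the mean ratio was 0.624 in Ha, 1.06 in Hb, 0.637 in La and 0.954 in Lb. With medians in place of sums it was 0.624, 1.01, 0.715 and 0.995, and there Hb and Lb overlapped while all La libraries were above all Ha libraries. On the CPM scale, which is not per length, it was 1.5, 3.09, 1.47 and 2.69. A ratio shows unequal change and not which side moved.

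**Figure D3:**
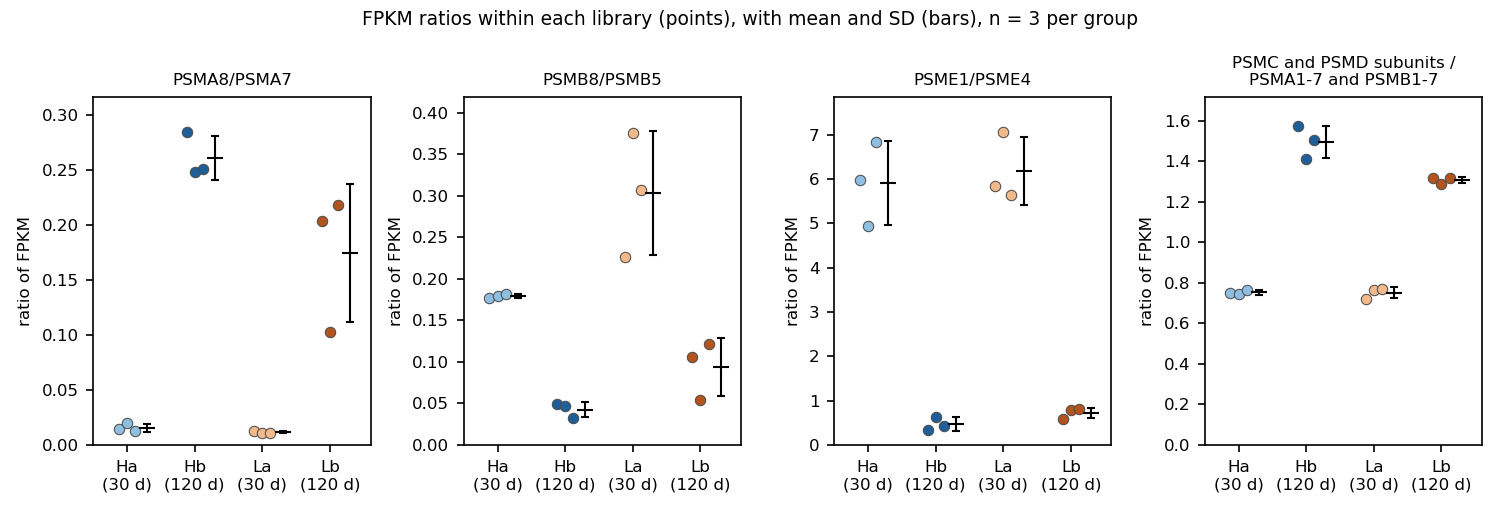
Ratios of FPKM within each library (points; y axis, from 0), with the mean and SD of the 3 libraries of a group (bars), for PSMA8 over PSMA7, PSMB8 over PSMB5, PSME1 over PSME4 and the 17 PSMC and PSMD subunits over the 14 core-ring genes, for Ha and La at 30 days and Hb and Lb at 120 days (x axis). The ages do not overlap in any panel; the last ratio averages 0.753 in Ha and 0.75 in La against 1.49 in Hb and 1.31 in Lb.

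The base is built with the chaperones PSMD5, PSMD9 and PSMD10, which leave before the proteasome works. PSMD5 measured 82.7, 76.6 and 76.9 CPM in the Ha libraries, 39.7, 35.5 and 34.6 in Hb, 66.7, 57.2 and 60.4 in La and 48.8, 48.2 and 39 in Lb. The 120-day libraries were all below the 30-day libraries. The change was -1.1 ± 0.12 (SE), adjusted p 0.000171 in Hezuo and -0.42 ± 0.13 (SE), adjusted p 0.0157 in Landrace. The latter adjusted p did not stay under 0.05 whichever library was left out. PSMD10, X-linked and overlapping ATG4A, fell in the same way, with -1.26, adjusted p 0.000697 and -0.92, adjusted p 0.000435 and no overlap of the ages. It was called in Hezuo, and in Landrace without Lb1 (-1.02), with library totals and in both FPKM fits. PSMD9 had 785, 453 and 249 estimated counts in the Ha libraries, 90.6, 0 and 0 in Hb, 443, 182 and 90.6 in La and 182, 295 and 90.8 in Lb. Of its 10 counts above 0, 7 lay within 0.1 step of whole multiples of 90 estimated counts, from 1 to 5 steps, and the other 3 up to 0.28 step away. Its libraries varied widely within every group, Hb2 and Hb3 were at 0, and edgeR with TMM called neither age change (-3.46, adjusted p 0.0573 in Hezuo, -0.21, adjusted p 0.752 in Landrace). The Hezuo fall was called with library totals, in both FPKM fits, in the fit of all 12 libraries and with the replicate block. Without Hb1 it was called in Hezuo, in Hb vs Lb and in the interaction, where Hb was at 0 and the fitted value is no bound.

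Markers of Sertoli and Leydig cells also fell in part between the ages, beside these members. Spermatogonial markers were called in both directions, and their summed level was higher in every 120-day library than in every 30-day library. Of 8 Sertoli markers, 4 were called lower and 0 higher in each breed, with medians of -1.12 and -0.97 and INHA the most abundant. At an unadjusted p under 0.05, 7 and 6 passed, and DESeq2 also called 0 higher. They summed to 1269.8, 1209.6 and 1664 CPM in the Ha libraries, 405, 579 and 467 in Hb, 2642, 3213 and 2914 in La and 605, 753 and 640.5 in Lb. Of 7 Leydig markers, 4 were called lower in Hezuo and 5 in Landrace, with CYP17A1 the most abundant. Their sum was 10086, 9586 and 8750.2 CPM in the Ha libraries, 4066, 331 and 268 in Hb, 13676, 9326 and 11211 in La and 4922, 7417 and 3086 in Lb. Hb1 stood far above Hb2 and Hb3, and without Hb1 CYP17A1 (-7.45, adjusted p 5.89e-06) and INSL3 (-4.47, adjusted p 0.000368) were called lower as well. In Landrace, CYP17A1 was not called without Lb3 (-0.98, adjusted p 0.00911), and the fit of all 12 libraries called 3 markers lower. HSD17B3 was not called without La1 (-0.996, adjusted p 0.00033) or Lb1 (-0.97, adjusted p 0.000324). Of 11 spermatogonial markers, 3 were called higher and 6 lower in Hezuo and 4 higher and 5 lower in Landrace, with DDX4 the most abundant and a sum of 369, 363 and 304 CPM in the Ha libraries, 857, 820.3 and 817 in Hb, 223, 222 and 231 in La and 701, 638 and 657 in Lb. In Landrace the 5 lower calls were 3 without La1, and ID4, called higher, was lost without La1 (0.89) or Lb1 (0.83). With library totals the split was 2 and 7 in Hezuo. With a pseudocount of 1 on FPKM the split was 1 and 5 in Hezuo and 3 and 2 in Landrace. In Hezuo, UTF1 was not called without Ha1, Ha2, Ha3, Hb1 or Hb2 (adjusted p 0.0774 to 0.119), KIT without Ha1, Ha2, Hb1 or Hb3 (log2 fold change -0.93 to -0.86) and ID4 without Ha3 (0.79) or Hb2 (0.89), while ZBTB16 was gained without Hb2 (-1.06). None of these markers was at 0 in every library, and their part in the proteasome results was not tested.

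The PA28 activator genes PSME1 and PSME2, induced by interferon, encode subunits of a cap that opens the core without ATP. They sit side by side (chromosome 7, 75161830 to 75164531 and 75154570 to 75157871). PSME1 measured 117, 102 and 131 CPM in the Ha libraries, 30.3, 37.8 and 33.6 in Hb, 136, 117 and 112 in La and 38.3, 45.3 and 45.3 in Lb. No 120-day library reached the level of any 30-day library. The change was -1.78 ± 0.15 (SE), adjusted p 4.7e-05 in Hezuo and -1.49 ± 0.13 (SE), adjusted p 1.63e-05 in Landrace, the smallest adjusted p among the lower members in each breed. PSME1 overlaps EMC9, so its counts are uncertain in that respect. PSME2 measured 26, 25.3 and 28.1 CPM in the Ha libraries, 10.1, 7.29 and 5.74 in Hb, 41.3, 34 and 30 in La and 12.8, 11.9 and 13.3 in Lb. Its 120-day libraries were likewise all lower, and La was above Ha in every library. It changed by -1.78 ± 0.23 (SE), adjusted p 0.000412 in Hezuo and -1.45 ± 0.16 (SE), adjusted p 7.2e-05 in Landrace. The FPKM of PSME2 as a percentage of that of PSME1 was 27.2 ± 2.01 in Ha, 27.6 ± 10.5 in Hb, 34.2 ± 2.1 in La and 35.4 ± 4.37 in Lb, with the ages overlapping in both breeds. PSME3, which encodes the nuclear PA28 gamma cap, went the other way. Its level was 91.9, 115 and 105 CPM in the Ha libraries, 144, 146 and 158 in Hb, 87.2, 84.4 and 80.7 in La and 157, 127 and 120.3 in Lb, with every 120-day library above every 30-day library. The rise was 0.53 ± 0.13 (SE), adjusted p 0.00713 in Hezuo and 0.7 ± 0.12 (SE), adjusted p 0.00091 in Landrace, under the fold threshold in both. With library totals the Hezuo rise was 0.22, adjusted p 0.167. PSME4 encodes PA200, the cap that binds acetylated histones, and lies on chromosome 3, 87231510 to 87337709. It measured 144, 152 and 142 CPM in the Ha libraries, 662, 436 and 574 in Hb, 168, 120.2 and 148 in La and 479.5, 417 and 411 in Lb. All 120-day libraries were above all 30-day libraries, with Hb1 the highest. The change was 1.93 ± 0.18 (SE), adjusted p 7.43e-05 in Hezuo and 1.6 ± 0.14 (SE), adjusted p 2e-05 in Landrace, called under every setting tried. The FPKM of PSME1 as a percentage of that of PSME4 was 592 ± 95.2 in Ha, 46.9 ± 15.6 in Hb, 618 ± 77.1 in La and 72.4 ± 12.2 in Lb, so of this pair PSME1 was the more abundant per length at 30 days and PSME4 at 120 days. PSME3 as a percentage of PSME4 was 233 ± 13.2 in Ha, 124 ± 18.5 in Hb, 186 ± 24.9 in La and 129 ± 12.8 in Lb, above 100 percent in every library, and its ages did not overlap in either breed. The log2 ratio changed by -0.93 in Hezuo and -0.52 in Landrace on FPKM and by -1.38 and -0.92 on CPM.

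The inhibitor gene PSMF1 encodes PI31, which binds the core and is also known as a transport adaptor, and lies on chromosome 17, 34118324 to 34164723. It measured 33, 29.7 and 34 CPM in the Ha libraries, 225, 179.7 and 284 in Hb, 27.7, 38.4 and 32.3 in La and 139, 198 and 86.8 in Lb. Every 120-day library was above every 30-day library, and Lb varied most, with Lb3 lowest and Lb2 highest. The change was 2.83 ± 0.19 (SE), adjusted p 2.06e-05 in Hezuo, the smallest adjusted p of all members there, and 2.12 ± 0.27 (SE), adjusted p 0.000179 in Landrace. The call held under every setting tried in both breeds. Among the chaperones of the core particle, PSMG1 to PSMG4, PSMG1 was called higher in both breeds (1.22, adjusted p 0.000404 and 1.5, adjusted p 1.01e-05), with all 120-day libraries above all 30-day libraries. It was not called in Hezuo with library totals or FPKM. PSMG2, the partner of PSMG1, measured 24.9, 24.6 and 19.2 CPM in the Ha libraries, 37.8, 29.6 and 31.1 in Hb, 13.7, 12.1 and 14.4 in La and 26.9, 30.7 and 25.8 in Lb. All 120-day libraries were above the 30-day libraries of their breed, and the La libraries were below all Ha libraries. It changed by 0.52 ± 0.18 (SE), adjusted p 0.0318 in Hezuo and by 1.06 ± 0.15 (SE), adjusted p 0.000243 in Landrace, a call lost without La2 or Lb2 (0.99 each). The adjusted p in Hezuo did not stay under 0.05 whichever library was left out. PSMG2 overlaps CEP76. The partners PSMG3 and PSMG4 were not called, with PSMG3 at -0.01 and -0.15 and PSMG4 at 0.11 and 0.42. The -0.01 turned positive with DESeq2 and RLE factors and the 0.11 negative with library totals and FPKM.

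The order of the members by level, per length, changed with age. In Ha the highest mean FPKM were those of PSMB4 (180.5), PSMD2 (167), PSMB1 (159), PSMA6 (148) and PSME1 (101). In La they were PSMB4 (153), PSMD2 (121), PSMA6 (116), PSMB1 (114) and PSME1 (104). Neighbours in these orders overlapped in part, as PSMB4 (174 to 190.4) and PSMD2 (159 to 177) did in Ha. At 120 days PSMD2 led with 363 FPKM in Hb and 343 in Lb. Then came PSMA6 (129), PSMC4 (128), PSMC3 (112) and PSMF1 (109) in Hb, and PSMC4 (128), PSMA6 (126), PSMC3 (105) and PSMB4 (101) in Lb. The PSMD2 libraries (334 to 394 in Hb and 328 to 367 in Lb) lay above every library of every other member, and the neighbours after it overlapped. All 48 members together took 0.393 to 0.516 percent of the estimated counts at 30 days and 0.576 to 0.642 percent at 120 days. The most abundant entry of the table, the assembled gene MSTRG.25122, took 7.49 to 9.62 percent at 30 days and 2.66 to 5.29 percent at 120 days, and what part this has in the members' share was not tested. Per length the total fell in Hezuo and rose in Landrace: summed FPKM was 2651 in Ha, 2460.1 in Hb, 2241 in La and 2598 in Lb (means of 3 libraries).

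At 30 days, in Ha vs La, edgeR called 0 of 47 members at the fold threshold, against 7.62 percent of all genes tested. DESeq2 called 0 too, and 22 members had an unadjusted p under 0.05, a level for which the share of all genes is not given here. By adjusted p alone, 1 member was higher in Landrace, against 10.1 percent of all genes, and 11 were lower, against 11.2 percent. The median log2 fold change was -0.21, against 0.00 over all genes, and the median size of the change was 0.26 among members and 0.30 among all genes. PSMB10 was the member that was higher (0.64 ± 0.13 (SE), adjusted p 0.0122), with all 3 La libraries above all 3 Ha libraries. It had an adjusted p of 0.0678 in the fit of all 12 libraries. The lower members with the smallest adjusted p were PSMB5 (-0.54 ± 0.08 (SE), adjusted p 0.00367), PSMG2 (-0.77 ± 0.15 (SE), adjusted p 0.0105) and PSMB1 (-0.46 ± 0.09 (SE), adjusted p 0.0129), each with all 3 La libraries below all 3 Ha libraries. For PSMB1 the libraries read 171, 161 and 151 CPM in the Ha libraries, 125, 101 and 104 in Hb, 128, 108 and 116 in La and 119, 129 and 102 in Lb. The 12 members became 4 to 13 when a library was left out, and only PSMB5, PSMB10 and PSMG2 passed whichever library was left out. The 12 were 18 with DESeq2 and in each FPKM fit, 17 with library totals and 4, all lower, in the fit of all 12 libraries. The shares of all genes by this rule in these other fits are not given here, so these counts cannot be set against the whole table. PSMB1 was lost without Ha1 (-0.41, adjusted p 0.0511). The others were lost without some library: PSMB3 (-0.45) without Ha1, Ha2, La2 or La3 (adjusted p 0.059 to 0.0802), PSMB6 (-0.43) without Ha1, La2 or La3 (adjusted p 0.0623 to 0.0647), PSMC4 (-0.48) without Ha1, La2 or La3 (adjusted p 0.0504 to 0.0544) and PSMD1 (-0.36) without Ha1, Ha2, Ha3, La2 or La3 (adjusted p 0.06 to 0.113). So were PSMD2 (-0.43) without Ha1, La2 or La3 (adjusted p 0.0548 to 0.059), PSMD5 (-0.36) without Ha1, Ha2, La2 or La3 (adjusted p 0.0673 to 0.0938), PSMD8 (-0.37) without Ha1 or La3 (adjusted p 0.0548 to 0.0606) and PSMD13 (-0.26) without each of the 6 in turn (adjusted p 0.057 to 0.132).

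At 120 days edgeR called 0 of 46 members in Hb vs Lb at the fold threshold, against 3.85 percent of all genes, and 0 by adjusted p alone, against 5.47 percent. By adjusted p alone DESeq2 gave 2 members, the fit of all 12 libraries 3 and the FPKM fits 4 (pseudocount 1) and 3 (0.1), all higher in Landrace. PSME2 was among them in the fit of all 12 libraries (0.71, adjusted p 0.0315) and on FPKM (0.81, adjusted p 0.0453, and 0.91, adjusted p 0.0463). At an unadjusted p under 0.05 there were 7, namely PSMB3, PSMB4, PSMB8, PSMB10, PSMD5, PSME2 and PSMG4, all higher in Landrace. The shares of all genes at an unadjusted p under 0.05, and by adjusted p alone in the other fits, are not given here. The median log2 fold change of the members was 0.04, against 0.00 over all genes. In edgeR, PSMB8 reached 1.2 ± 0.32 (SE), adjusted p 0.0697 and PSMB10 1.11 ± 0.31 (SE), adjusted p 0.0741, with all 3 Lb libraries above all 3 Hb libraries in each. DESeq2 called both (PSMB8 1.18, adjusted p 0.0106; PSMB10 1.09, adjusted p 0.0184), as did the fit of all 12 libraries (1.15, adjusted p 0.014, and 1.06, adjusted p 0.00921), and limma on FPKM with pseudocount 0.1 called PSMB10 (1.20, adjusted p 0.0319). Of all genes, 3.96 percent were called higher with DESeq2, 4.94 percent in the fit of all 12 libraries and 4.09 percent in that FPKM fit. Over all 15 alternatives the adjusted p ran from 0.0106 to 0.207 for PSMB8 and from 0.00921 to 0.197 for PSMB10. In the class I list, edgeR called TAP1 higher in Hb vs Lb (1.22 ± 0.23 (SE), adjusted p 0.028), a call lost without Hb3, Lb1, Lb2 or Lb3 (adjusted p 0.0809 to 0.0905). Its Lb libraries were all above its Hb libraries. PSMD9 was called without Hb1, with Hb then at 0.

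Markers of cell types also differed between the breeds beside these members. At 30 days edgeR called lower in Landrace 7 of 13 meiosis genes tested, 4 of 8 spermatocyte markers, 1 of 10 spermatogonial markers and 1 of 6 genes of histone removal. Without Ha1, Ha2 or any single La library, the 7 became 1 to 4, the 4 became 0 to 2 and the gene of histone removal was lost. It called higher 3 of 8 Sertoli markers, 1 of 7 Leydig markers, 2 of 6 lymphocyte markers and, of the class I list, TAP1 (1.03 ± 0.12 (SE), adjusted p 0.00188, all La libraries above all Ha libraries), lost without Ha2 (0.97, adjusted p 0.00842) or La1 (0.95, adjusted p 0.00733). The lymphocyte calls were 1 without La3, and the Leydig calls were 2 without Ha3 or La2. At 120 days it called higher in Landrace 1 of 5 macrophage markers, AIF1 (2.17 ± 0.48 (SE), adjusted p 0.0447), lost without Hb2, Hb3, Lb1, Lb2 or Lb3 (adjusted p 0.0638 to 0.145), and 1 of 5 endothelial markers, PECAM1 (1.41 ± 0.32 (SE), adjusted p 0.0484), lost without Hb1, Hb2, Hb3, Lb1, Lb2 or Lb3 (adjusted p 0.0597 to 0.14), each with all Lb libraries above all Hb libraries. Of 10 spermatid markers 1 was called lower, AKAP4 (-1.1 ± 0.21 (SE), adjusted p 0.0283), with all Lb libraries below all Hb libraries, and lost without Hb3, Lb2 or Lb3 (adjusted p 0.0934 to 0.115). Without Hb2 the spermatid markers called lower were 3, and 2 Sertoli markers were called higher. Without Hb1, 5 of 7 Leydig markers were called higher in Landrace: CYP11A1 (4.08, adjusted p 0.00622), CYP17A1 (6.9, adjusted p 0.000725), INSL3 (4.77, adjusted p 0.0179), LHCGR (2.96, adjusted p 0.0258) and STAR (5.07, adjusted p 0.0122). In the interaction edgeR called 2 of 14 meiosis genes, 2 of 11 spermatogonial markers, 1 of 5 macrophage markers and 1 of 5 endothelial markers positive, and 2 of 10 spermatid markers and 1 of 9 genes of histone removal negative. With a library left out the meiosis count ran from 0 to 4, the spermatogonial from 1 to 2, the macrophage and spermatid from 0 to 2 and that of histone removal from 0 to 1, the endothelial call held, and without Hb1 5 Leydig markers were called positive. The part of these cells in the differences of proteasome genes between breeds, or in how they changed with age, was not tested.

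The breed-by-age interaction called 0 of 47 members at the fold threshold in edgeR, against 5.14 percent of all genes, and 8 had an unadjusted p under 0.05. DESeq2 called 0, limma on FPKM with pseudocount 0.1 called PSMD9, and edgeR without Hb1 called PSMD9 as well. In that FPKM fit 6.16 percent of all genes were called positive and 1.71 percent negative. By adjusted p alone, 3 members had a positive interaction, against 4.56 percent of all genes, and 0 a negative one, against 2.68 percent. The 3 were 4 with DESeq2, 6 with library totals, 10 in each FPKM fit and 2 with RLE factors or the replicate block, all positive, and at an unadjusted p under 0.05 the 8 were 18 with library totals and 23 and 25 on FPKM. The shares of all genes by adjusted p alone in these other fits, and at an unadjusted p under 0.05, are not given here. These counts can therefore not be set against the whole table. The median was 0.23, against 0.02 over all genes. The FPKM fits shifted the all-gene median of the interaction by 0.07 and 0.16. PSMB3, a structural beta subunit, measured 78.7, 74.5 and 75.2 CPM in the Ha libraries, 48.2, 46.8 and 48.7 in Hb, 64.3, 51.3 and 51.8 in La and 60.9, 63 and 56.1 in Lb. The Hb libraries were below all Ha libraries and the Landrace ages overlapped. The interaction was 0.77 ± 0.16 (SE), adjusted p 0.017, and it stayed under 0.05 in all 20 alternatives (0.73 to 0.97). The age change was -0.67 in Hezuo and 0.12 in Landrace, the latter negative with library totals and FPKM. PSMB5 had an interaction of 0.58 ± 0.14 (SE), adjusted p 0.0315, with all 3 Hb libraries below all Ha libraries and all 3 Lb above all La. It was lost without Ha1, Ha2, La1, La3, Lb1 or Lb2 (adjusted p 0.0509 to 0.07) and with the replicate block (0.58, adjusted p 0.0501). PSMD5 had 0.67 ± 0.17 (SE), adjusted p 0.0382, from age changes that were both negative, with all Hb libraries below all Ha and all Lb below all La. It was lost without Ha1, Ha2, Hb3, La1, La2, La3, Lb1 or Lb2 (adjusted p 0.0521 to 0.0799) and with RLE size factors (0.62, adjusted p 0.051). Leaving out Hb1 added PSMB1 (adjusted p 0.0345) and leaving out Lb3 added PSMB4 (adjusted p 0.0372). For PSMA8 the interaction was 0.02 ± 0.34 (SE), adjusted p 0.99, of either sign by scaling, and all 6 older libraries were above all younger ones. For PSMF1 it was -0.72 ± 0.36 (SE), adjusted p 0.251, for PSME4 -0.35 ± 0.23 (SE), adjusted p 0.376, for PSMB8 0.93 ± 0.36 (SE), adjusted p 0.135 and for PSMB10 0.42 ± 0.3 (SE), adjusted p 0.427, none under 0.05, so no difference in age change between the breeds was detected for these members.

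Genes that work with the proteasome without carrying its symbol were listed beside the members. The list had 26 genes (genes of ubiquitin handling, shuttle receptors, deubiquitinases and regulators of proteasome genes), of which 23 were in the table. POMP, ECPAS and DDI2 had no entry under those symbols, and SEM1 was at 0 in every library. Of 22 tested, 7 were called higher and 5 lower in Hezuo (median 0.12), against 28.2 and 23.2 percent of all genes tested, and 5 higher and 3 lower in Landrace (median 0.27), against 27.5 and 20.1 percent. With library totals the splits were 3 and 8 in Hezuo and 2 and 4 in Landrace. On FPKM with pseudocount 1 they were 1 and 7 and 1 and 4, and with 0.1 they were 1 and 9 and 1 and 5. In Hezuo the higher genes included the deubiquitinase UCHL5 (1.33), UBB (1.32) and the shuttle UBQLN1 (1.09). Among the lower, the smallest adjusted p belonged to the shuttles UBQLN4 (-1.63), UBQLN2 (-1.68) and RAD23B (-1.33) and the transcription factor NFE2L1 (-1.06), which drives proteasome genes. NFE2L1 was not called without Hb3 (-0.91, adjusted p 0.00266). AKIRIN2 was lost too, without Hb1 (0.89, adjusted p 0.0186), and ZFAND5 was gained without Ha3 (-1.01) and Hb2 (-1.09). Called genes in Landrace included UBB (1.14), AKIRIN2 (1.26), which brings proteasomes into the nucleus, and the ubiquitin receptor ADRM1 (1.01), all higher, and UBQLN2 (-1.39), RAD23B (-1.52) and UBQLN4 (-1.03), all lower. ADRM1 was not called without La2 (0.95), Lb1 or Lb2 (0.99 each), UBQLN4 without La2 (-0.90) or Lb2 (-0.95) and UCHL5 without La2 (0.99), and PAAF1 was gained without Lb3 (1.15). Without La2 the 5 higher calls were 3. UBB was the most abundant partner, and the list summed to 4898, 4756 and 4968 CPM in the Ha libraries, 7213, 6014 and 6704 in Hb, 4952, 4666 and 4578 in La and 6432, 6982 and 6055 in Lb. Between the breeds edgeR called 0 at either age, with 8 at an unadjusted p under 0.05 at 30 days and 5 at 120 days, and 1 call at 30 days without Ha1. DESeq2 called 0 at both ages too.

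On the genome, 10 of the 48 members overlap another gene: PSMA3, PSMA7, PSMC1, PSMC5, PSMD1, PSMD6, PSMD10, PSMD14, PSME1 and PSMG2. Of the 15 called members, 2 are among them in Hezuo (PSMD10 and PSME1) and 3 in Landrace (PSMC5, PSME1 and PSMG2). Counts of these genes are uncertain to the extent of the overlap, since the strand setting of the counting is not stated. According to the authors, the second cDNA strand was made with dUTP and digested before amplification. The deposited lncRNA table held 18 transcripts within 10 kb of a member, with known transcripts placed by the span of their gene. Of these, 2 belong to LOC102165044, a gene whose span overlaps PSMA3. In Hezuo 12 were tested, and edgeR called 3 higher, against 38.6 percent of all lncRNAs tested, and 2 lower, against 17.6 percent. In Landrace 14 were tested, with 6 higher, against 41.8 percent, and 1 lower, against 19.3 percent. Between the breeds edgeR and DESeq2 each called 0 at both ages, against 6.35 percent of all lncRNAs at 30 days and 3.14 percent at 120 days, and 1 had an unadjusted p under 0.05 at each age. MSTRG.21274.2, an assembled transcript that ends 144 bases before PSMD14 (chromosome 15, 68057583 to 68107235), had 59.2, 57.9 and 68.4 estimated counts in the Ha libraries, 898, 447 and 798 in Hb, 32.7, 41.2 and 46.6 in La and 649, 529.7 and 392 in Lb. Every 120-day library was above every 30-day library, and the change was 3.38 ± 0.38 (SE), adjusted p 0.000593 in Hezuo and 3.26 ± 0.32 (SE), adjusted p 0.000136 in Landrace. MSTRG.7166.2, next to PSMA5 (chromosome 4, 110683756 to 110695339), had 13.4, 19.4 and 9.33 estimated counts in the Ha libraries, 71.8, 45.9 and 62.4 in Hb, 1.5, 4.4 and 7.78 in La and 72.3, 65 and 53.8 in Lb. It was higher in all older libraries, with 1.97 ± 0.45 (SE), adjusted p 0.0074 and 3.3 ± 0.56 (SE), adjusted p 0.00136. Known transcripts of LOC102167065, a gene that ends at the same base, were not called in either breed. The more abundant changed by 0.28, adjusted p 0.397 in Hezuo and by -0.14, adjusted p 0.633 in Landrace. The less abundant changed by 0.89, adjusted p 0.55 and by -0.13, adjusted p 0.801. LOC110257003, also beside PSMD14, rose by 2.64 ± 0.82 (SE), adjusted p 0.0276 in Hezuo, a call lost without Ha2, Ha3, Hb1, Hb2 or Hb3 (adjusted p 0.0507 to 0.102), and by 2.29 ± 0.54 (SE), adjusted p 0.00624 in Landrace, with all older libraries above all younger ones. The pair of LOC102165044 transcripts fell, with -1.17 ± 0.34 (SE), adjusted p 0.0214 and -1.43 ± 0.38 (SE), adjusted p 0.0149 in Hezuo and all Hb libraries below all Ha libraries. The former was lost without Ha1, Hb1 or Hb3 (adjusted p 0.051 to 0.076) and the latter without Ha1, Hb2 or Hb3 (adjusted p 0.0529 to 0.0772). In Landrace the latter was called (-1.97 ± 0.37 (SE), adjusted p 0.00216, all Lb below all La) and the former only without La3 (-1.10) or Lb1 (-1.08). The remaining calls of La vs Lb were a LOC106507279 transcript by PSMA1 (2.29 ± 0.49 (SE), adjusted p 0.00414) and LOC110261592 by PSME1 and PSME2 (2.41 ± 0.61 (SE), adjusted p 0.00916), both with all Lb libraries above all La, and MSTRG.23649.1 by PSMA2. The last had 0, 1 and 0 estimated counts in the Ha libraries, 22, 10 and 5 in Hb, 0, 1 and 0 in La and 28, 39 and 15 in Lb, at or under the floor of 3 in all younger libraries, so no fold change is given. The other LOC106507279 transcript by PSMA1 was not called in La vs Lb (0.61, adjusted p 0.221). LOC102166186, by PSMA6, had 0 counts in all 6 libraries at 30 days, 33, 25 and 7 in Hb and 4, 7 and 10 in Lb. It had too few counts to be tested with age over all libraries and was called in Hezuo without Ha1, Ha2, Ha3 or Hb3 (adjusted p 0.00896 to 0.0167).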

How the data were processed

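Testes of 12 boars were sequenced, 3 per group. As stated by the authors, reads were filtered with fastp 0.18.0, cleared of rRNA with Bowtie2 2.2.8, mapped to Sscrofa11.1 with HISAT2 2.1.0 and assembled with StringTie 1.3.4. The authors deposited estimated counts per gene and per lncRNA transcript, not normalized, and which tool made them and its strand setting are not stated. The authors also deposited FPKM, per kilobase and per library, rounded by them. Positions of assembled lncRNA exons came from the deposited annotation, and those of genes from RefSeq. Counts were rounded, filtered with filterByExpr (minimum count 10), scaled by TMM and tested over all coding genes in edgeR 4.0.16 by quasi-likelihood F (limma 3.58.1, R 4.3.3), 6 libraries per comparison and 12 for the interaction. Adjusted p are Benjamini-Hochberg over all genes tested and two-sided. Calls needed an adjusted p under 0.05 and a log2 fold change over 1 in size. The SE is the size of the log2 fold change over the square root of F. CPM were TMM-scaled over all 12 libraries, and genes were compared with each other by FPKM. Groups with every library at or under 3 counts got no fold change, and floors cover counting error only. Alternatives were DESeq2 1.42.0, RLE factors, library totals, no filter, 10 counts in every library of a group, limma on log2 FPKM with pseudocounts 1 and 0.1, all 12 libraries in a joint fit, a replicate block and each library left out. For lncRNAs, the library sizes of the coding-gene table were tried as well. The pipeline was tested on simulated data. Tables and figures used Python 3.11.15, numpy 2.4.6, pandas 2.3.3, scipy 1.17.1 and matplotlib 3.10.9. Members and lists (proteasome partners, class I and interferon genes, meiosis, histone removal, and markers of spermatogonia, spermatocytes, spermatids, Sertoli, Leydig, macrophage, lymphocyte and endothelial cells) were chosen with earlier results of these data known. Values in every library are given for PSMA7, PSMA8, PSMB5 to PSMB11, PSME1 to PSME4 and PSMF1, and for up to 3 members per direction and comparison with the smallest adjusted p. Of each partner list, up to 4 called genes per direction are named. Other genes named were chosen after their values were seen.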

Additional observations from a re-analysis of the deposited data

Results flagged for a closer look

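By the edgeR test of the breed-by-age interaction, 3 of 47 members had an adjusted p under 0.05, all positive, against 4.56 percent of all genes positive and 2.68 percent negative. None reached the fold threshold. PSMB3 had an interaction of 0.77 (adjusted p 0.017) on the log2 scale, with mean levels of 76.2 CPM in Ha, 47.9 in Hb, 55.8 in La and 60 in Lb. All 3 Hb libraries were below all 3 Ha libraries, and the Landrace ages overlapped. PSMB5 had 0.58 (adjusted p 0.0315), with means of 148, 129.7, 102 and 134 CPM in the same order. All Hb libraries were below all Ha and all Lb above all La. Its adjusted p ran from 0.0015 to 0.07 over the alternatives. PSMD5 had 0.67 (adjusted p 0.0382), with means of 78.7, 36.6, 61.4 and 45.3 CPM, and the older libraries were all lower in each breed. Its adjusted p ran from 0.00284 to 0.0799 over the alternatives.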

How the results depend on the processing

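No called member changed direction under any alternative. Without the fold threshold, by adjusted p alone, the called members were 30 in Hezuo and 34 in Landrace (15 each with it), 12 in Ha vs La and 3 in the interaction. The median log2 fold change of the members in Hezuo, 0.11, was -0.20 with library totals and -0.37 on FPKM with pseudocount 0.1, and in Landrace, 0.4, it was 0.085 on FPKM with pseudocount 0.1. Members called in Hb vs Lb were 2 with DESeq2, 2 in the fit of all 12 libraries and 1 on FPKM with pseudocount 0.1, and in the interaction 1 on FPKM with pseudocount 0.1. The shares of all genes called higher and lower in these Hb vs Lb fits were 3.96 and 2.18, 4.94 and 2.32, and 4.09 and 1.02 percent. In that interaction fit they were 6.16 and 1.71 percent. The causes of these changes in the members' medians and calls were not tested. With each library left out in turn, the Hezuo median ran from 0.023 to 0.19, called partners in Landrace from 5 to 9 and in Ha vs La from 0 to 1, called lncRNAs near members in Hezuo from 3 to 5, and called members in Hb vs Lb and in the interaction from 0 to 1. Called members ran from 14 to 16 in Hezuo and from 13 to 16 in Landrace. A replicate block, pairing libraries of equal number, gave 3 called lncRNAs in Hezuo and 1 called member (PSMD9) in Ha vs La. With this block the members called in Hezuo lost PSMB9 and gained PSMD9. In this block the correlations of paired libraries were between -0.02 and 0.05, and the study names no such pairing. Counting only lncRNAs whose span, that of the gene for known ones, overlaps a member left 2 in Hezuo and 1 in Landrace. The ratio of regulatory particle to core ring and its alternatives were chosen after seeing the data. The mean ratio was higher at 120 days by 0.742 in Hezuo and 0.557 in Landrace, by 0.44 and 0.317 without PSMD2, 0.387 and 0.28 with medians, and 1.59 and 1.22 on CPM (differences of ratios, not log2). With 3 boars per group, small differences between breeds may go undetected, and PSMB9, PSMB11 and PSMD9 had too few or too uneven counts for precise values. Boars, not technical repeats, are the replicates, and cell types were not separated.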

Other observations

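LOC102157770, which the annotation names as the proteasomal ubiquitin receptor ADRM1, was singled out after its values were seen. It measured 0.844, 1.12 and 0.544 CPM in the Ha libraries, 32.5, 13.5 and 1.71 in Hb, 0.467, 0.201 and 0.556 in La and 0, 0.377 and 0.359 in Lb. Hb1 and Hb2 were far above all other libraries, and Hb3 was above every 30-day library and every Lb library. Its log2 fold change was 4.25 ± 0.97 (SE), adjusted p 0.00599 in Ha vs Hb and -5.94 ± 1.21 (SE), adjusted p 0.0348 in Hb vs Lb. The latter was not called by edgeR without Hb1, Lb1, Lb2 or Lb3 (adjusted p 0.0617 to 0.126).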
